A study of Mus musculus with 36 samples.

Results

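*Zfp423*, *Zfp467*, *Ebf1*, *Ebf3*, *Tle3*, *Nfia* and *Nfib* are transcriptional regulators of early fat cell commitment, and their RNA was followed through differentiation of brown pre-adipocytes. The 7 genes were taken as a list by name and were matched among 55536 annotated genes. Counts came from 36 libraries of mouse cells from a clonal line in which Cas9 had disrupted *Rxra*, the gene of the nuclear receptor RXRα. The Rxra-/- clones 48 and 66 each received, by retrovirus, wild-type *Rxra* (*Rxra* WT) or *Rxra* in which the serine that is phosphorylated in response to insulin is replaced by alanine (*Rxra* SA). Cells were sampled in 3 replicates per group at day 0, day 2 and day 6 of differentiation. Day 0 was the uninduced state, the differentiation medium held insulin and T3, and dexamethasone, IBMX and indomethacin were present only for the first 2 days. All 12 groups thus shared the loss of the endogenous gene and the retroviral supply of *Rxra*, and none of the cells analysed here carried an untouched *Rxra* locus. Each clone number stands for cells grown from a single knockout cell, and clone 48 was sequenced in library pool 1 and clone 66 in library pool 2, so that clone and pool cannot be told apart. The submitters' design text calls the replicates technical and the study describes them as independent. P-values and intervals may therefore measure only technical spread between these libraries.

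Commitment of a mesenchymal cell to the fat lineage begins before the master regulator PPARγ and its partner C/EBPα are fully active. *Zfp423* is a zinc finger protein that marks committed pre-adipocytes, takes part in BMP-SMAD signalling and binds EBF proteins. EBF proteins bind DNA and act with PPARγ in fat cells, NFI proteins open chromatin at fat cell genes, and *Tle3* is a co-repressor of the Groucho family that acts with PPARγ and opposes Wnt-TCF transcription. In brown fat, *Ebf2* and *Nfia* are known to favour the thermogenic gene program, whereas *Zfp423* and *Tle3* are known to restrain it.

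The median library had 18338726 assigned read pairs, the smallest 11351078 and the largest 24349263, and values are given as CPM, the count of a gene relative to the library total after TMM scaling. Markers were checked against the labelled cell type. Fat cell genes rose with time: *Fabp4*, which encodes a fatty acid carrier, lay between 22.5 and 69.1 CPM at day 0 and between 2700.4 and 4404 CPM at day 6. The brown fat markers were mixed. At day 6 *Ucp1*, the uncoupling protein, reached at most 0.304 CPM, *Cidea* 1.64 CPM, *Prdm16* 1.2 CPM and *Dio2* 0.373 CPM, while *Ppargc1a*, a co-activator of mitochondrial genes, lay between 10.3 and 29.2 CPM and *Cox7a1*, a mitochondrial subunit, between 4.11 and 26.7 CPM. *Elovl3*, a fatty acid elongase, reached 14.9 CPM at day 2 and 1.04 CPM at day 6. All 7 tested genes of this list of 10 were higher at day 6 than at day 0, beside 34.0% of all genes tested. The list also holds the general fat cell genes *Fabp4*, *Adipoq* and *Plin1*. Of the 6 pre-adipocyte markers, 4 were tested and all 4 were lower at day 6 than at day 0, beside 33.3% of all genes tested. The log2 fold changes were -5.06 for *Ly6a*, -2.80 for *Cd34*, -2.13 for *Pdgfra* and -1.58 for *Pdgfrb*, and the last 2 were present at each day. *Dlk1* reached at most 0.0462 CPM at day 0 and was at 0 in all libraries of days 2 and 6, and *Thy1* reached at most 0.251 CPM. The 6 skeletal muscle markers summed to at most 0.344 CPM and the 5 endothelial markers to at most 1.06 CPM in any library, with *Myod1* at 0 in all libraries. Of the 6 macrophage and blood markers only *Cd68* reached a mean of 1 CPM. *Rxra* itself had a mean of 158 CPM at day 0, then 549.9 CPM at day 2 and 247 CPM at day 6, which includes the retroviral transcript, and did not pass the test between genotypes on any day.

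The genes lie on 6 chromosomes (GRCm38, GENCODE M21). *Zfp423* (ENSMUSG00000045333.15) spans chr8:87661810-87959595 on the minus strand and *Tle3* (ENSMUSG00000032280.16) spans chr9:61372366-61418497 on the plus strand. *Ebf1* (ENSMUSG00000057098.14) spans chr11:44617317-45008091 on the plus strand and *Ebf3* (ENSMUSG00000010476.14) spans chr7:137193673-137314445 on the minus strand. *Nfia* (ENSMUSG00000028565.18, chr4:97772734-98118874, plus strand) and *Nfib* (ENSMUSG00000008575.17, chr4:82290173-82705750, minus strand) share a chromosome. *Zfp467* (ENSMUSG00000068551.12) spans chr6:48427697-48445825 on the minus strand. Values are sums over all exons of a gene and do not separate isoforms. Read pairs were counted without strand, and *Ebf3* shares 355 exon bases, or 3.85% of its exons, with the antisense gene *Gm45278*, which had a median of 11 counts, while *Nfia* shares 4 exon bases with another gene.

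RefSeq promoter windows (GRCm38.p6), each from 250 bases before to 50 bases after a start site, were found for 6 of the 7 genes. The sequence before the start is printed for the genes with the largest rise, the largest fall and the co-repressor, whose RefSeq start site is the 5′ end of the annotated gene. Capitals mark each CG pair, the site of DNA methylation in mammals. *Zfp423* is read from chr8:87959596-87959845 (minus strand), *Ebf3* from chr7:137314446-137314695 (minus strand) and *Tle3* from chr9:61372116-61372365 (plus strand).
Zfp423: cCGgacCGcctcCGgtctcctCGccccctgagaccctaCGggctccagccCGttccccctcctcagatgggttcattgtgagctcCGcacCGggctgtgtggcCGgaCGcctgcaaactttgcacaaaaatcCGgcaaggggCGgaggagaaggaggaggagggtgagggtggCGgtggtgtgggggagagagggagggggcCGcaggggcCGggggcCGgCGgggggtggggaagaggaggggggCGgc
Ebf3: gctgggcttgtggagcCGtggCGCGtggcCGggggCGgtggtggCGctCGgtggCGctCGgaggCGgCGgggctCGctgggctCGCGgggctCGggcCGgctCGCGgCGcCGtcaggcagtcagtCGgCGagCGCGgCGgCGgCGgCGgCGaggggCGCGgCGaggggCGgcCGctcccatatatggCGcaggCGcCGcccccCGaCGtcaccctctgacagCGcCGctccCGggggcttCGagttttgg
Tle3: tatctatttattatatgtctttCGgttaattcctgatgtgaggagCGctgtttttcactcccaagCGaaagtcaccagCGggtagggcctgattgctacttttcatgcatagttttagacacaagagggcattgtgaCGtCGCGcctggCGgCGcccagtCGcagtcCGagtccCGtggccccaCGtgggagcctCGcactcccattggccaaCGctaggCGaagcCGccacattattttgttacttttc

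These stretches held 18 CG pairs for *Zfp423*, 43 for *Ebf3* and 17 for *Tle3*, against a median of 6 over all 32851 windows. The G and C content of the whole window was 65.7% for *Zfp423*, 77% for *Ebf3*, 53.7% for *Tle3* and 44.7% for the *Nfia* window, which starts 190791 bases upstream of the annotated gene counted here, with a median of 52.7% over all windows. Short motifs were searched on both strands of the 8 windows. The EBF motif (TCCC, any 2 bases, GGGA), present in 0.904% of all windows, was not found in these letters. Neither was the NFI motif (TTGGC, any 5 bases, GCCAA), present in 0.0365%, or its arm TTGGC followed by A (TTGGCA), present in 14.1%. The arm TTGGC followed by other bases was not searched, and the printed *Tle3* stretch holds it within ttggccaa. The nuclear receptor repeat (AGGTCA, any base, AGGTCA), present in 0.0396%, was not found either. The arm AGGTCA, present in 16.3% of all windows and contained in that repeat, was found in an inner window of *Zfp423* (chr8:87804390-87804689), and the TCF motif CTTTGAA, present in 5.14%, in a window of *Ebf1* (chr11:44617850-44618149).

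The first comparison asked how the genes changed with differentiation. Of the 6 genes with counts in every library, 3 rose and 2 fell between day 0 and day 2, 4 rose and 1 fell between day 0 and day 6, and 2 rose and 1 fell between day 2 and day 6. Genes were called at an adjusted p under 0.05 in edgeR's quasi-likelihood test, with Benjamini-Hochberg adjustment over all 17589 genes tested. The background was high, since 72.8%, 67.4% and 60.8% of all genes tested were called in these comparisons, so that the number of called members was close to that of genes at large. By direction, 36.9% of all genes rose and 35.9% fell from day 0 to day 2, 34.0% rose and 33.3% fell from day 0 to day 6, and 31.1% rose and 29.7% fell from day 2 to day 6. Within clone 48 the genes called were 4, 4 and 1 of 6 in these 3 comparisons, against 64.6%, 55.4% and 50.0% of all genes, and within clone 66 they were 5, 5 and 2 of 6, against 60.8%, 56.5% and 49.3%. With replicate numbers as a block, 3 genes in clone 48 and 4 in clone 66 were called from day 2 to day 6, against 58.7% and 57.8% of all genes, again close to the background. In bulk RNA, fewer cells with a transcript cannot be told apart from less of it per cell.

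**Figure D1:**
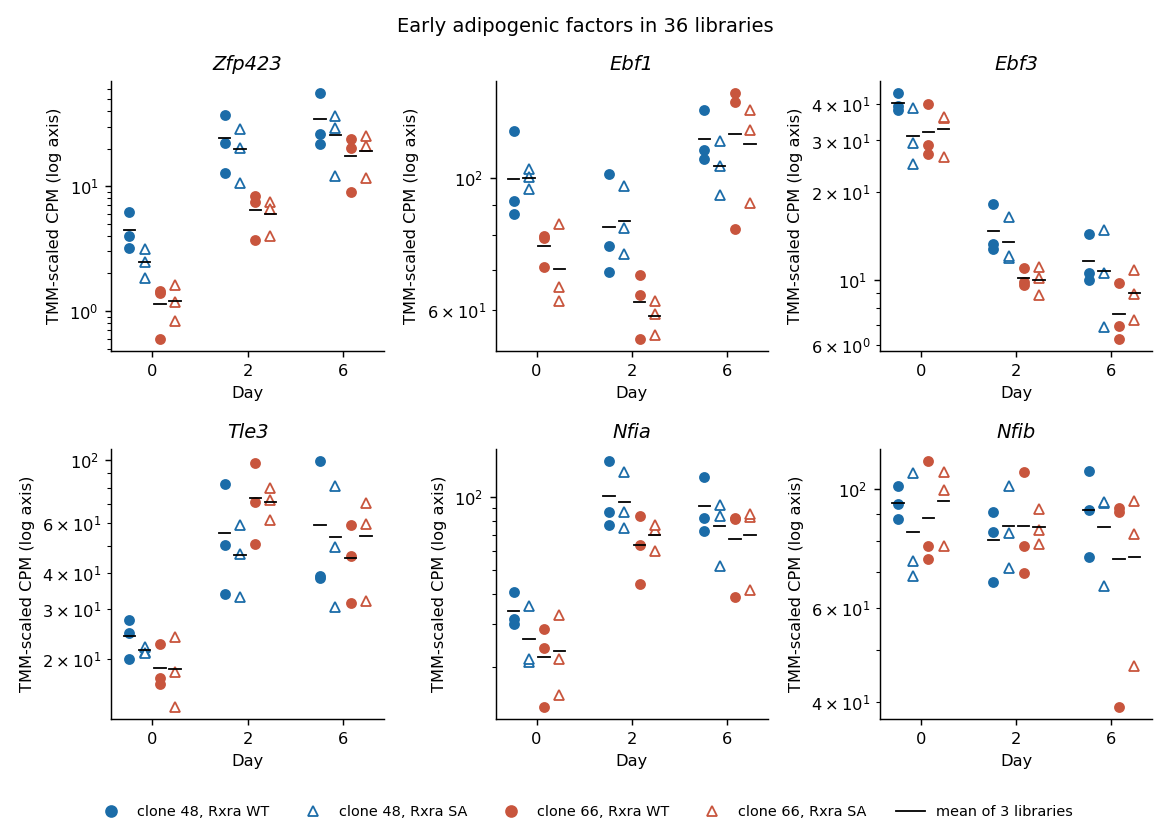
TMM-scaled CPM (log axis) of 6 genes by day; each point is a library, filled circles are *Rxra* WT, open triangles *Rxra* SA, blue clone 48, red clone 66, and black lines are means of 3 replicates. *Zfp423* lay between 0.597 and 6.16 CPM at day 0 and between 8.9 and 55.4 CPM at day 6, whereas *Nfib* overlapped between all days.

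*Zfp423* rose the most. In clone 48 its lowest, median and highest CPM among 6 libraries were 1.83, 3.16 and 6.16 at day 0, then 10.6, 21.3 and 37.4 at day 2, then 12, 27.4 and 55.4 at day 6. In clone 66 they were 0.597, 1.28 and 1.62 at day 0, then 3.73, 6.98 and 8.36 at day 2, then 8.9, 20.5 and 25.2 at day 6. Every library of day 0 lay below every library of day 6, and within each clone also below every library of day 2. The log2 fold change from day 0 was 2.56 (SE 0.269, adjusted p = 1.8e-10 in edgeR's test) at day 2 and 3.56 (SE 0.275, adjusted p = 1.01e-13) at day 6, which is an 11.8-fold difference. In clone 66 the rise continued from day 2 to day 6, with a log2 fold change of 1.56 (adjusted p = 0.000278 in edgeR's test) and no overlap between the days. In clone 48 days 2 and 6 overlapped and the log2 fold change was 0.44 (95% interval -0.22 to 1.10, adjusted p = 0.269 in edgeR's test), which passed only with replicate numbers as a block (adjusted p = 0.0153). At day 0 the estimate rests on 12 to 102 counts per library.

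*Nfia*, a nuclear factor that favours brown fat genes, and *Tle3* rose by day 2 and did not pass the test from day 2 to day 6. *Nfia* in clone 48 had a lowest, median and highest CPM of 20.9, 30.7 and 40.6 at day 0, then 74.3, 86.9 and 140.6 at day 2, then 51.8, 82.7 and 121.2 at day 6. In clone 66 *Nfia* had 13.6, 22.6 and 32.6 CPM at day 0, then 43.9, 68.1 and 83.3 at day 2, then 38.8, 81.6 and 85.2 at day 6. All day 0 libraries were below all day 2 libraries in both clones together, and days 2 and 6 overlapped in each clone. The log2 fold change was 1.64 (SE 0.169, adjusted p = 1.16e-10 in edgeR's test) at day 2, 1.55 (adjusted p = 5.59e-10) at day 6, and -0.10 (95% interval -0.43 to 0.24, adjusted p = 0.627) between the later days.

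*Tle3* in clone 48 had a lowest, median and highest CPM of 20.0, 21.6 and 27.3 at day 0, then 33, 48.6 and 82.3 at day 2, then 30.3, 44.2 and 99.3 at day 6. The values in clone 66 were 13.5, 17.5 and 23.8 at day 0, then 50.9, 71.8 and 98.3 at day 2, then 31.4, 52.5 and 70.7 at day 6. Each day 0 library was below each later one, while the later days overlapped. Across clones *Tle3* rose by 1.58 on the log2 scale at day 2 (SE 0.193, adjusted p = 5.79e-09 in edgeR's test) and by 1.37 at day 6 (adjusted p = 1.11e-07). Between day 2 and day 6 the log2 fold change was 0.15 in clone 48 (adjusted p = 0.67 in edgeR's test) and -0.54 in clone 66 (adjusted p = 0.0848), and the latter passed with replicate numbers as a block (-0.57, adjusted p = 0.00498).

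*Ebf3*, an EBF family member also known from neural development, was the only one of the 6 genes that fell at both later days. In clone 48 its lowest, median and highest CPM were 24.8, 38.5 and 43.5 at day 0, then 11.9, 13 and 18.2 at day 2, then 6.89, 10.5 and 14.8 at day 6. In clone 66 they were 26.3, 32.5 and 40.1 at day 0, then 8.85, 9.98 and 11.1 at day 2, then 6.28, 8.09 and 10.8 at day 6. All 12 libraries of day 0 lay above all 24 later libraries. The log2 fold change was -1.51 at day 2 (SE 0.12, adjusted p = 1.74e-13 in edgeR's test) and -1.82 at day 6 (SE 0.121, adjusted p = 1.98e-15), a 3.53-fold fall. The further difference from day 2 to day 6 was -0.31 (adjusted p = 0.0272 in edgeR's test). It did not pass without replicate 1 of clone 48 (adjusted p = 0.0703), replicate 2 of clone 48 (0.0783), replicate 1 of clone 66 (0.142) or replicate 2 of clone 66 (0.0834), and within a clone it passed only with the replicate block, at -0.35 in clone 48 (adjusted p = 0.0141) and -0.30 in clone 66 (adjusted p = 0.0362).

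*Ebf1*, the family's founding member, which is required for B cells and promotes fat cell formation, took a different course. In clone 48 its lowest, median and highest CPM were 87, 98 and 119.7 at day 0, then 69.6, 79.6 and 101.5 at day 2, then 93.5, 109.3 and 129.8 at day 6. In clone 66 they were 62.3, 75.2 and 83.5 at day 0, then 53.7, 60.6 and 68.6 at day 2, then 82.1, 125.1 and 138.3 at day 6. The days overlapped except in clone 66, where all libraries of day 6 lay above those of day 2. *Ebf1* was lower at day 2 than at day 0 (log2 fold change -0.27, SE 0.098, adjusted p = 0.0148 in edgeR's test) and higher at day 6 than at day 2 (0.68, SE 0.0985, adjusted p = 2.91e-07). The difference at day 2 did not pass without replicate 2 of clone 48 (-0.24, adjusted p = 0.0521 in edgeR's test), and within clone 48 it was -0.25 (adjusted p = 0.0788), which passed with the replicate block (-0.26, adjusted p = 0.0251) and in DESeq2 (-0.30, adjusted p = 0.0338). Within clone 66 it was -0.29 (adjusted p = 0.0487 in edgeR's test) and did not pass without replicate 1 of clone 48 (0.0712), replicate 1 of clone 66 (0.103), replicate 2 of clone 66 (0.19) or the filter on low counts (0.117). The rise from day 2 to day 6 in clone 48 (0.40, adjusted p = 0.00897 in edgeR's test) did not pass without its replicate 2 (0.35, 0.0867). Against day 0, day 6 was higher by 0.66 in clone 66 (adjusted p = 4.72e-05 in edgeR's test), and in clone 48 the difference was 0.15 (95% interval -0.11 to 0.40, adjusted p = 0.335).

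*Nfib*, a close relative of *Nfia*, passed the test between no pair of days. Over 12 libraries its lowest, median and highest CPM were 68.6, 90.9 and 112.8 at day 0, then 67, 83 and 107.6 at day 2, then 39.1, 91 and 108.2 at day 6. The lowest 2 libraries of day 6 were the replicates numbered 1 of clone 66. The log2 fold change was -0.11 (95% interval -0.36 to 0.15, adjusted p = 0.459 in edgeR's test) at day 2 and -0.15 (95% interval -0.41 to 0.10, adjusted p = 0.286) at day 6. With replicate numbers as a block, *Nfib* was lower at day 6 than at day 0 in clone 66 (-0.35, adjusted p = 0.0176 in edgeR's test, against -0.30 and 0.172 without it). When counts were scaled by library size alone, the median of all genes moved to -0.29 at day 2 and -0.23 at day 6, and *Nfib* was called lower at both days (-0.41 and -0.38).

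**Figure D2:**
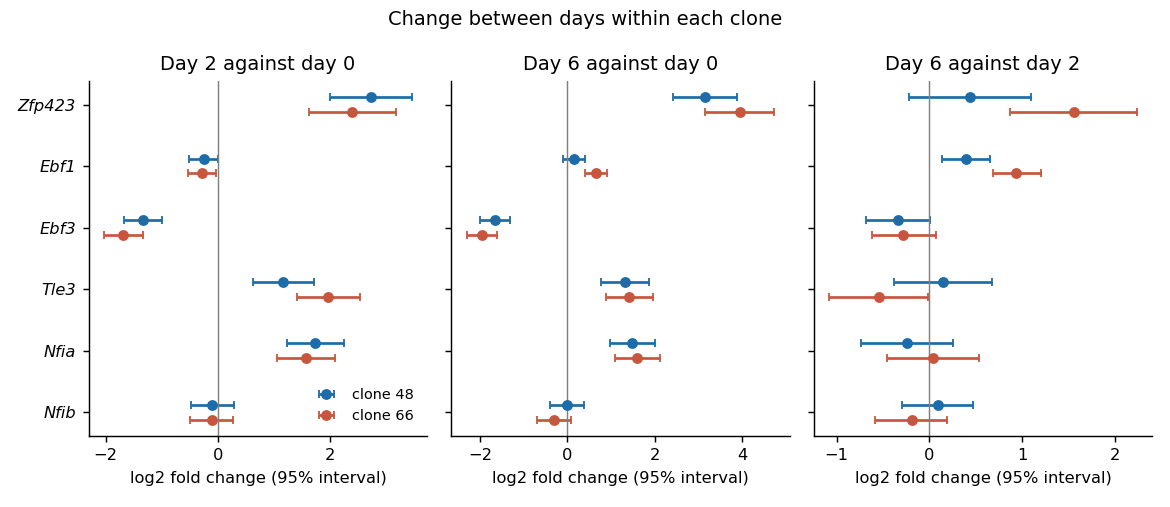
Log2 fold change between days (x axis; horizontal bars are 95% intervals) for 6 genes, in clone 48 (blue) and clone 66 (red). *Zfp423*, *Tle3* and *Nfia* lay right of 0 and *Ebf3* left of 0 in both clones against day 0, and from day 2 to day 6 *Zfp423* was at 0.44 in clone 48 and 1.56 in clone 66.

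*Zfp467*, a zinc finger gene known to favour fat over bone cell fate in marrow stroma, was barely detected. It had at most 14 counts in a library, was at 0 in 16 of 36 libraries, and entered the test through clone 66 at day 6 alone, so it is described by its counts and kept out of the counts of called genes. The 12 libraries of day 0 held 36 counts, those of day 2 held 1 count and those of day 6 held 65 counts. In clone 66 day 0 held 30 counts, day 2 held 1 and day 6 held 58, while clone 48 had 6, 0 and 7 counts on these days. The ratio of summed CPM between day 6 and day 0 was 2.0 (95% counting interval 1.31 to 3.1), and between day 6 and day 2 it was 60.1 (10.4 to 2409). In clone 48, with no count at day 2, day 6 was at least 2.12-fold higher when 3 counts over the group were taken as the floor, and the exact counting interval of the ratio had a lower limit of 1.31. The ratio of clone 66 to clone 48 was 4.01 (1.64 to 11.8) at day 0 and 7.37 (3.36 to 19.1) at day 6. These exact intervals cover counting error only.

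Levels were compared between genes as CPM per kilobase of exon. *Ebf1* was highest at day 0 (8.87 ± 1.71 SD, n = 12) and at day 6 (11.6 ± 1.86), and at day 2 the means of *Nfia* (7.59 ± 2.47) and *Ebf1* (7.37 ± 1.58) lay within each other's spread. At day 0 the order below *Ebf1* was *Nfib* (6.03 ± 1.04), *Ebf3* (3.69 ± 0.691), *Nfia* (2.41 ± 0.754), *Tle3* (1.77 ± 0.334), *Zfp423* (0.413 ± 0.283) and *Zfp467* (0.0323 ± 0.0317). At day 6 it was *Nfia* (7.0 ± 2.11), *Nfib* (5.43 ± 1.4), *Tle3* (4.56 ± 1.87), *Zfp423* (4.32 ± 2.23), *Ebf3* (1.06 ± 0.3) and *Zfp467* (0.0662 ± 0.0604). At day 6 *Nfib*, *Tle3* and *Zfp423* followed each other at distances smaller than their SD, and the distance from *Nfia* to *Nfib* was smaller than the SD of *Nfia* but not that of *Nfib*. *Ebf3* and *Zfp423* changed places, since *Ebf3* lay above *Zfp423* at day 0 and below it at day 6.

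The second comparison asked whether the 2 clones differed. At day 0 and at day 2 the libraries of clone 66 held less *Zfp423* and *Ebf1* than those of clone 48. At day 6 none of the 6 genes passed edgeR's test, where *Zfp423* and *Ebf3* had an unadjusted p under 0.05, as had 6215 of all 17589 genes tested. DESeq2 called 1 of the 6 at day 6, and over all 17587 genes it called 2302 higher and 2333 lower in clone 66. The members called in edgeR's test, all lower in clone 66, were 2 of 6 at day 0 and 3 of 6 at day 2. Of all genes tested, 22.7%, 28.6% and 25.0% were called between clones at days 0, 2 and 6, and 11.0%, 14.9% and 11.5% were lower in clone 66. *Zfp423* was lower in clone 66 by a log2 difference of -1.49 at day 0 (95% interval -2.28 to -0.70, adjusted p = 0.00484 in edgeR's test) and -1.81 at day 2 (95% interval -2.50 to -1.12, adjusted p = 0.000121), and on both days all its 6 libraries lay below all 6 of clone 48. Other measures differed between the clones as well: the summed level of the 10 brown adipocyte markers had a median of 3276 CPM in clone 48 and 2269 CPM in clone 66 at day 2, and 7830 CPM and 5704 CPM at day 6, of which the general fat cell genes *Fabp4*, *Adipoq* and *Plin1* made up at least 98.6% in each library. *Rxra* was lower in clone 66 at day 0 (log2 difference -0.55, adjusted p = 0.0122 in edgeR's test). Their part in the differences of the 6 genes was not tested. At day 6 the difference of *Zfp423* was -0.70 (95% interval -1.36 to -0.04, adjusted p = 0.118 in edgeR's test), with the libraries overlapping, and without replicate 1 of clone 48 it passed (-0.99, adjusted p = 0.022).

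*Ebf1* differed by -0.44 at day 0 (adjusted p = 0.0105 in edgeR's test), -0.47 at day 2 (adjusted p = 0.00464) and 0.07 at day 6 (95% interval -0.18 to 0.33, adjusted p = 0.722). At day 0 it did not pass without replicate 2 of clone 48 (adjusted p = 0.0758) or replicate 3 of clone 66 (0.106), and at day 2 not without replicate 3 of clone 48 (0.0908). *Ebf3* differed by -0.48 at day 2 (adjusted p = 0.0295 in edgeR's test), and without replicate 3 of clone 48 the difference was -0.29 (adjusted p = 0.173). It did not pass there without replicate 2 of clone 48 or any replicate of clone 66 either (adjusted p between 0.0544 and 0.101 in edgeR's test). *Ebf3* at day 6 differed by -0.43 (adjusted p = 0.0629 in edgeR's test) and passed without replicate 1 of clone 48 (-0.60, 0.0196) or replicate 3 of clone 66 (-0.62, 0.0202). *Tle3* at day 2 differed by 0.51 (adjusted p = 0.149 in edgeR's test), and without replicate 3 of clone 48 by 0.84 (adjusted p = 0.00748). *Nfia* at day 2 differed by -0.57 (adjusted p = 0.0834 in edgeR's test), and passed without replicate 1 of clone 48 (-0.73, 0.0463), by library size alone (-0.62, 0.0484) and without a filter on low counts (-0.54, 0.0403).

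The difference between clones in the change over time was tested directly. None of the 6 genes passed in edgeR or in DESeq2. In edgeR's test, adjusted calls covered 6.22% of all genes from day 0 to day 2 and 3.62% from day 0 to day 6. In that test 1 of the 6 genes had an unadjusted p under 0.05 at each time, *Tle3* by day 2 and *Ebf1* by day 6. Of all 17589 genes tested, 3118 by day 2 and 2390 by day 6 had an unadjusted p under 0.05. With replicate numbers as a block, 1 of the 6 genes passed by day 2 and 2 by day 6, against 12.3% and 7.75% of all genes with that block. *Tle3* rose more in clone 66 by day 2, by 0.89 on the log2 scale (adjusted p = 0.0158 with the block and 0.247 without it, both from edgeR's test). By day 6 *Zfp423* rose more in clone 66 by 0.87 (adjusted p = 0.041 with the block and 0.569 without it, edgeR) and *Ebf1* by 0.50 (adjusted p = 0.0311 with the block and 0.118 without it, edgeR). *Tle3* also passed without replicate 3 of clone 48 (1.19, adjusted p = 0.0275 in edgeR's test) and *Ebf1* without replicate 1 of clone 66 (0.65, adjusted p = 0.0409).

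Of the 9 family relatives tested, *Ebf2* and *Zfp521* differed far more between clones than the 6 genes did, and the other 7 by -0.76 to 0.58 on the log2 scale over the 3 days. *Ebf2*, the EBF gene known for its selectivity for brown fat precursors, had a lowest, median and highest CPM of 16.6, 28 and 31.6 in clone 48 at day 0 and 0.14, 0.247 and 0.416 in clone 66, where a library held 3 to 10 counts. At day 6 the values were 41.2, 51.3 and 63.4 CPM in clone 48 and 0.799, 0.922 and 1.42 CPM in clone 66. The clones did not overlap on any day, and the log2 difference was -6.49 at day 0 (SE 0.212, adjusted p = 9.36e-20 in edgeR's test), -6.37 at day 2 and -5.68 at day 6. *Zfp521*, the closest relative of *Zfp423*, known to oppose fat cell formation, had 3.33, 4.15 and 5.49 CPM in clone 48 at day 0 and at most 0.112 CPM, or 3 counts, in any library of clone 66 on any day. Thus clone 66 held little *Ebf2* and *Zfp521* together with lower *Zfp423* at days 0 and 2, while its *Ebf1* and *Ebf3* at day 0 were 1.35-fold and 1.09-fold below those of clone 48, the latter not past the test (adjusted p = 0.644 in edgeR's test).

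**Figure D3:**
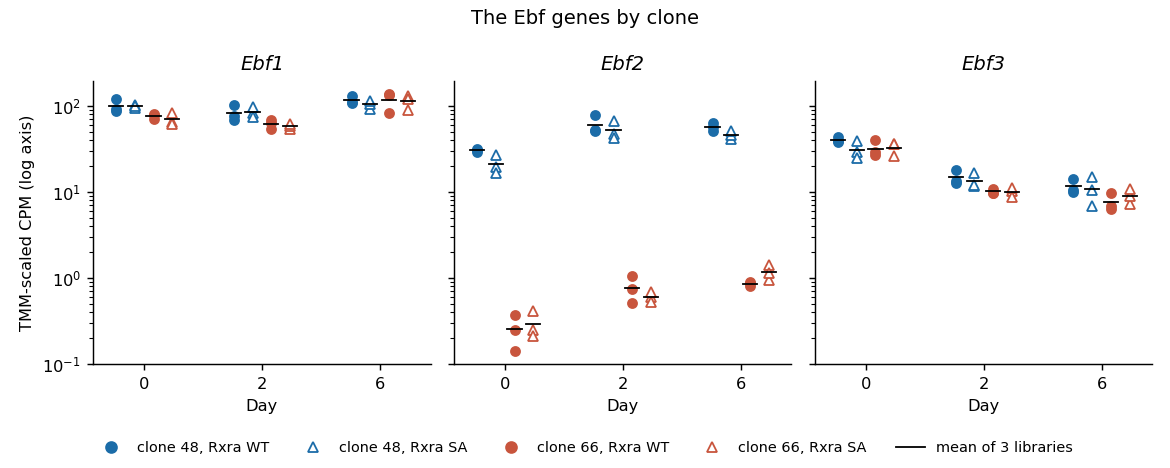
TMM-scaled CPM (shared log axis) of *Ebf1*, *Ebf2* and *Ebf3* by day, with points, colours and lines for libraries, clones, genotypes and means of 3 replicates. *Ebf2* lay at or above 16.6 CPM in clone 48 and at or below 1.42 CPM in clone 66, whereas the clones differed far less for *Ebf1* and *Ebf3*. All libraries of clone 66 lay below those of clone 48 for *Ebf1* at days 0 and 2 and for *Ebf3* at day 2, and the clones overlapped on their other days.

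The third comparison asked whether the cells with *Rxra* SA differed from those with *Rxra* WT. None of the 6 genes passed edgeR's test on any day, and 0 of 6 had an unadjusted p under 0.05. The share of all genes called was 0% on days 0, 2 and 6, where 166, 207 and 150 genes had an unadjusted p under 0.05 in edgeR's test, and DESeq2 called no member either. At day 0 *Zfp423* in clone 48 had 3.17, 3.96 and 6.16 CPM in *Rxra* WT and 1.83, 2.48 and 3.15 CPM in *Rxra* SA. In clone 66 it had 0.597, 1.39 and 1.45 CPM in *Rxra* WT and 0.831, 1.17 and 1.62 CPM in *Rxra* SA. Each clone gave 3 libraries against 3, and the share of all genes whose libraries separate fully was not counted. All *Rxra* SA libraries of clone 48 lay below the *Rxra* WT libraries, and those of clone 66 overlapped. This was the largest difference between genotypes, with a log2 fold change of -0.44 (95% interval -1.25 to 0.36, adjusted p = 1.0 in edgeR's test), and the difference between clones in it was 0.87 (95% interval -0.71 to 2.45, adjusted p = 0.986). With replicate numbers as a block, the latter was 1.01 (95% interval 0.11 to 1.91, unadjusted p = 0.0287, adjusted p = 0.599 in edgeR's test). With that block *Ebf3* had 0.46 (unadjusted p = 0.0487 in edgeR's test), and 1454 of all 17589 genes tested had an unadjusted p under 0.05. When same-numbered libraries of a day were blocked as pairs, the genotype difference of *Zfp423* was -0.47 (SE 0.221, unadjusted p = 0.0474, adjusted p = 0.815 in edgeR's test).

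For the other 5 genes the log2 difference between genotypes lay between -0.16 and 0.05 over the 3 days. *Ebf1* had the narrowest intervals, from -0.34 to 0.23 at day 0, -0.30 to 0.26 at day 2 and -0.38 to 0.18 at day 6. *Ebf3* had intervals of -0.49 to 0.18, -0.42 to 0.27 and -0.29 to 0.40 on these days, and *Nfib* of -0.40 to 0.33, -0.33 to 0.41 and -0.42 to 0.31. *Nfia* lay within -0.64 to 0.32 at day 0 and -0.58 to 0.37 at day 6, and *Tle3* within -0.64 to 0.45 and -0.49 to 0.58. A missed threshold does not show equal levels: the intervals of *Zfp423* admit a 1.51-fold increase at day 6, and that of *Ebf1* at day 6 ends at a 1.13-fold increase. These intervals come from the main fit, which does not pair libraries. They cover spread between libraries, not between separately made cell lines. With same-numbered libraries of a day blocked as pairs, an alternative chosen after seeing the data, these 2 upper limits were 1.12-fold and 1.03-fold. The change of the genotype difference over time passed for none of the 6 genes, with 0% of all genes called, and was largest for *Zfp423* from day 0 to day 6, at 0.35 (95% interval -0.70 to 1.41, adjusted p = 1.0 in edgeR's test). *Zfp467* had 22 counts in *Rxra* WT and 14 in *Rxra* SA at day 0, and 26 and 39 counts at day 6, a ratio of 1.39 (95% counting interval 0.824 to 2.38).

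**Figure D4:**
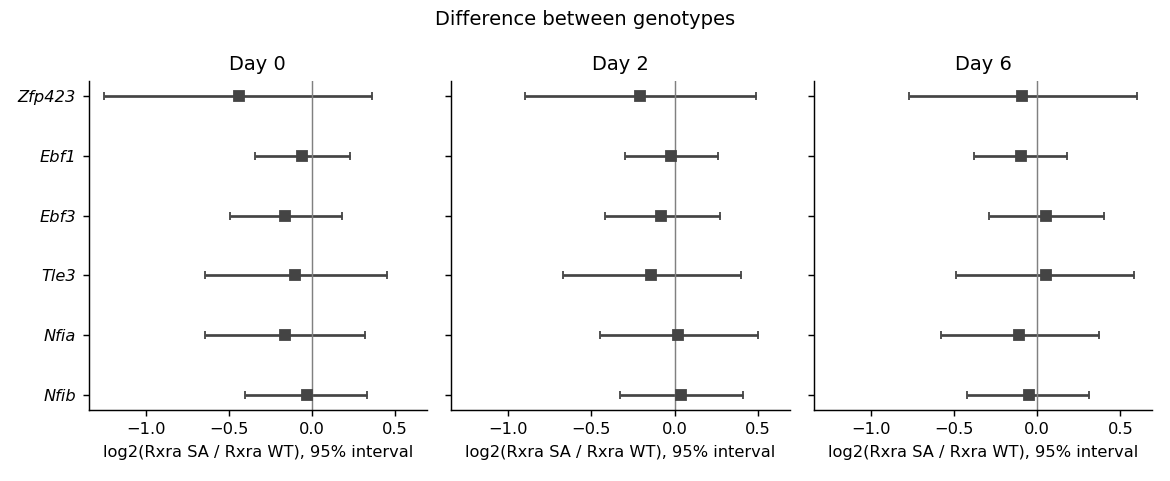
Log2 difference between *Rxra* SA and *Rxra* WT (x axis; points are estimates over both clones, bars 95% intervals) for 6 genes at days 0, 2 and 6. The intervals come from the main fit, which does not pair libraries. All of them include 0, and the widest is that of *Zfp423* at day 0, from -1.25 to 0.36.

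Much of the spread within groups was shared by same-numbered libraries of both genotypes. Over the 6 genes, the deviation of a *Rxra* WT library from the mean of its 3 replicates and that of the same-numbered *Rxra* SA library had a Pearson r of 0.32 at day 0, against 0.92 at day 2 and 0.88 at day 6, over 36 pairs of values per day that share libraries. At days 2 and 6, replicate 1 was lowest in both genotypes in 19 of 24 combinations of gene, clone and day, and replicate 3 was highest in both in 19 of 24. Over all genes tested, these shares averaged 26.6% and 23.8%. *Zfp423* in clone 48 at day 6 had mean CPM of 16.8, 27.4 and 46 in replicates 1, 2 and 3, and *Tle3* had 34.7, 44 and 90.3. In clone 66 at day 6, *Nfib* had 42.9, 87.3 and 92.8 CPM and *Nfia* had 40.1, 82 and 83.6 CPM.

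Some other measures also differed between the replicates. *Adipoq*, which encodes the fat cell hormone adiponectin, had 3273, 3190.3 and 2121 CPM in replicates 1, 2 and 3 of clone 48 at day 6, and 2106, 1867 and 1388 CPM in clone 66. At day 2 *Adipoq* was likewise lowest in replicate 3, at 548 CPM in clone 48 and 70.1 CPM in clone 66. The summed level of the 10 brown adipocyte markers was lowest in replicate 3 of both clones at day 6, at 5950.0 CPM and 4788 CPM, and of clone 48 at day 2, but in clone 66 at day 2 it was 1895, 2366 and 2399 CPM in replicates 1, 2 and 3. Between replicates 3 and 1 at day 6, genes with at least 9 kb of exon differed by a median of 0.26 in clone 48 and 0.37 in clone 66 on the log2 scale, genes under 2 kb by -0.22 and -0.26, and the 6 genes by 0.80 and 1.01. At day 2 the long genes differed by 0.09 in clone 48 and 0.13 in clone 66, and the 6 genes by 0.65 and 0.51. At day 0 these medians were 0.01 and 0.08 for the long genes, and 0.20 and 0.50 for the 6 genes. *Zfp423*, with 5608 bases of exon, was not among the genes of at least 9 kb. The part of fat cell content or transcript length in the genes' spread was not tested.

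**Figure D5:**
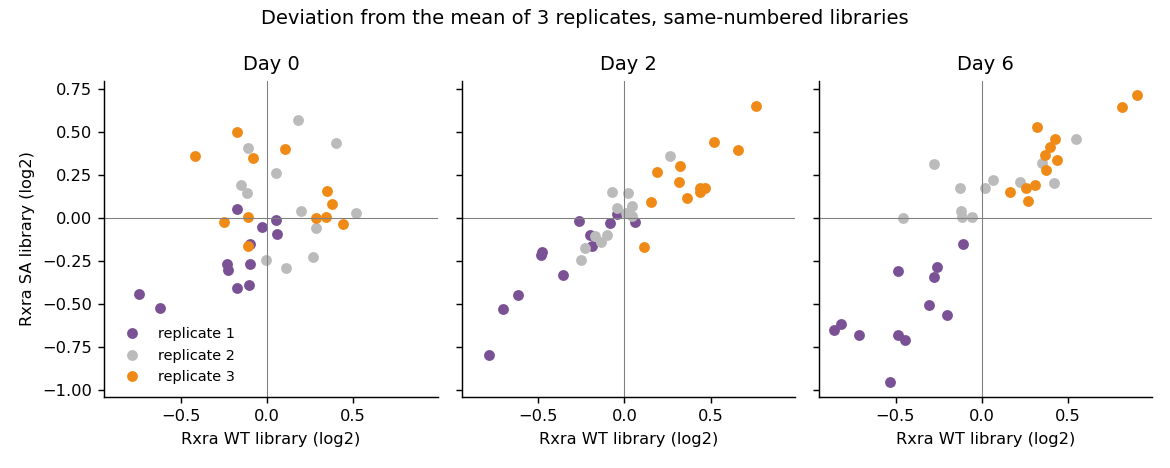
Deviation of log2 CPM from the mean of 3 replicates in *Rxra* WT (x axis) and in the same-numbered *Rxra* SA library (y axis), for 6 genes and both clones, at days 0, 2 and 6; colours give the replicate number. Points follow the diagonal at day 2 (r = 0.92) and day 6 (r = 0.88) and scatter at day 0 (r = 0.32).

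Genes of the same families and pathways were counted for context, beside 34.0% of all genes that rose and 33.3% that fell from day 0 to day 6. Of 10 family relatives, 9 were tested, and from day 0 to day 6 3 rose and 4 fell, with a median log2 fold change of -0.11 against -0.00 for all genes. The Groucho gene *Tle2* fell by 3.50 on the log2 scale (adjusted p = 1.07e-20 in edgeR's test) and the short family member *Tle6* by 2.49, while *Tle3* rose. *Ebf2* rose by 1.26, opposite to *Ebf3*. *Zfp521* fell by 3.12, opposite to *Zfp423*, which rests on clone 48 (-3.27), since clone 66 held 0 to 3 counts per library (-1.40, adjusted p = 0.184 in edgeR's test). Of 18 adipocyte factors and products, 15 were tested and 14 rose by day 6, with a median of 4.57. Among them *Plin1*, which coats the lipid droplet, rose by 11.62, *Adipoq* by 11.00, and *Cd36*, a fatty acid transporter, by 9.21, and *Cidec*, a lipid droplet protein, by 8.50.

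Of 9 BMP-SMAD genes, 1 rose and 6 fell from day 0 to day 6, with a median of -0.27, and the 7 called are close to the 67.4% of all genes called. The inhibitors of helix-loop-helix factors *Id2* and *Id3* fell by 2.97 and 2.18 on the log2 scale, *Id1* rose by 0.50, and *Smad1*, which carries the BMP signal, fell by 0.75. Of 8 Wnt-TCF genes, 6 were tested, and 2 rose and 1 fell. *Axin2*, a feedback inhibitor of Wnt signalling, rose by 2.68, from a low mean of 0.43 CPM at day 0 to 2.69 CPM at day 6. The TCF family gene *Lef1* rose by 2.14, from a mean of 0.273 to 1.24 CPM. *Ctnnb1*, which encodes β-catenin, fell by 0.33. Between genotypes none of the tested genes of these 4 lists passed on any day.

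The course of each gene was also compared with 10612 protein-coding genes over the 12 group means of log2 CPM, as a description without a test. The closest were *Mfsd12* (r = 0.995) for *Zfp423*, *Mal* (0.985) for *Ebf1*, *Heatr5a* (0.994) for *Ebf3*, *Hp* (0.990) for *Tle3*, *Gna12* (0.989) for *Nfia* and *Slc35d1* (0.882) for *Nfib*. Second were *Zfyve21* (0.990), *Cp* (0.974), *Sf3b2* (0.993), *Dusp4* (0.987), *Xrcc3* (0.988) and *Tango2* (0.865), in the same order. Among the 6 genes, *Zfp423* and *Nfia* were most alike (r = 0.94), followed by *Tle3* and *Nfia* (0.90), and *Ebf3* was opposite to *Tle3* (-0.89) and to *Nfia* (-0.82). The group means share days, clones and libraries.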

How the data were processed

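Gene counts of 36 libraries were analysed. From stranded total RNA libraries, the authors aligned reads to GRCm38 with STAR 2.7.0d and counted read pairs on exons of GENCODE M21 genes with featureCounts 1.6.2 without using the strand, and the deposited counts were raw. The rule for the 7 genes uses names and no measured value, but these genes and the gene lists were chosen with earlier results of these data known. The rule names all 7 genes and up to 4 called genes per list with the largest change from day 0 to day 6, and for likeness 2 genes each. *Ebf2* and *Zfp521* are named by this rule, and their difference between clones was seen first in the data.

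Low counts were removed by filterByExpr (edgeR 4.0.16) over 12 groups of clone, genotype and day, scaled by TMM and tested with the quasi-likelihood test in its earlier form. The model held genotype and day plus clone, and for contrasts within or between clones all 12 groups. Same-numbered WT and SA libraries deviated together (r over 9381 genes 0.176 to 0.93, mean 0.71, over 0.1 in 18 of 18 pairs). Fits with replicate numbers as a block or as pairs were therefore run as alternatives. The main fits held no term for the replicate. The block for clones is nested in the clone and gives no clone contrast. Genes with few counts are limited by counting error. The fits were tested on simulated counts with known fold changes. Those libraries were drawn independently, so the test did not cover the shared deviations of same-numbered libraries. Work was done in R 4.3.3 and python 3.11.15, with DESeq2 1.42.0 as an alternative.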

Additional observations from a re-analysis of the deposited data

Results flagged for a closer look

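Among 36 groups of 6 libraries (6 genes, genotype and day), 1 held a library farther from the rest than Dixon's limit of 0.625 allows: *Zfp423* in *Rxra* WT at day 6, where replicate 3 of clone 48 had 55.4 CPM and its gap to the next library was 0.633 of the whole range. Chance flags about 1 in 20 such groups. Each of these groups mixes the 2 clones. The same library also had the highest *Tle3* value of day 6, at 99.3 CPM. Without replicate 3 of clone 48, all day comparisons of *Zfp423* called over both clones were called again.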

How the results depend on the processing

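Over the 6 genes and all alternatives, 1980 values were recomputed. Of these 1924 kept their side of the threshold, 34 passed newly, 22 no longer passed, and none that was called changed its direction. The cause of these changes was not tested. The rises of *Zfp423*, *Nfia* and *Tle3* and the fall of *Ebf3* against day 0 passed in each clone under every alternative run.

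With the replicate block, 3 members in clone 48 and 4 in clone 66 passed from day 2 to day 6, against 1 and 2 without it and 58.7% and 57.8% of all genes with it, and for the clone difference over time 1 passed by day 2 and 2 by day 6, against 0; the other block values that changed a call stand beside their results. A block for each pair of libraries within a day, an alternative chosen after seeing the data, called no member between genotypes, where over all genes it called 0, 1 and 0 at days 0, 2 and 6 and gave 758, 736 and 506 an unadjusted p under 0.05.

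At day 6, 1 member differed between clones by library size alone, without a filter and in DESeq2, and 0 to 2 without a replicate, against 0 in the main analysis. Without a replicate, 1 to 2 members differed between clones at day 0, 0 to 1 passed from day 2 to day 6 in clone 48, and 0 to 1 differed between clones over time by day 2 and 0 to 1 by day 6.

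By library size alone, 4314 genes rose and 8679 fell by day 2, against 6494 and 6306, and 4314 rose and 8120 fell by day 6, against 5987 and 5862. With that scaling *Ebf1* at day 6 did not pass against day 0 (0.18, adjusted p = 0.0938 in edgeR's test), and *Ebf3* did not pass from day 2 to day 6 (-0.23, adjusted p = 0.0899). Without a filter on low counts *Ebf3* passed neither there (adjusted p = 0.0577 in edgeR's test) nor between clones at day 2 (adjusted p = 0.0535). In the lists, library size alone gave 1 adipocyte gene lower by day 6 and 0 BMP-SMAD genes higher. That scaling also gave 2 Wnt-TCF genes lower by day 2 and by day 6, and 2 higher and 0 lower from day 2 to day 6. RLE size factors gave 1 Wnt-TCF gene lower by day 2 and 2 higher from day 2 to day 6. Without a replicate, family relatives lower from day 2 to day 6 numbered 1 to 2, BMP-SMAD genes higher 0 to 1, Wnt-TCF genes lower by day 2 0 to 1, by day 6 1 to 2, and from day 2 to day 6 1 to 2 in each direction. The filter of the genotype and day groups, chosen after seeing the data, and a minimum of 1 CPM in 6 libraries leave out *Zfp467*, whose 0 to 14 counts limit it to counting ratios.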
